A study of Mus musculus with 8 samples.

Results

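The genes described here write, read and erase cytosine methylation or place histones on newly made DNA. They are the maintenance methyltransferase gene Dnmt1 and its partner Uhrf1, the de novo methyltransferase genes Dnmt3a and Dnmt3b with their cofactor Dnmt3l, the dioxygenase genes Tet1 and Tet2, the chromatin assembly factor genes Chaf1a and Chaf1b, and the ATPase gene Morc3. All probe sets annotated to 1 of these 10 symbols alone were taken. They numbered 24 for 9 genes, among 34945 probe sets with 1 symbol for 18193 genes in all, and all 24 passed the filter on dim probe sets. No probe set named Chaf1a alone was listed in the annotation used here, so Chaf1a was not analysed here.

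The cells were mouse embryonic stem cells grown on feeder cells, and their RNA was hybridised to 8 Affymetrix arrays. J1 cells (background strain 129S4/SvJae) transfected with Rif1 shRNA, a hairpin RNA that lowers Rif1 mRNA, were set against J1 cells with control shRNA, both collected 48 h after lipofection. F1 cells (C57BL/6xC3H) with stable Rif1 shRNA were set against F1 cells with control shRNA. Passage 16 is stated for the stable knockdown line, and the F1 control arrays carry that line's name under cell line and control shRNA under transfection. Each of the 4 groups had 2 arrays, which are not stated to be separate cultures, so p-values measure the spread between these arrays, which may be technical.

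Cytosine methylation in CpG pairs is copied after replication by DNMT1, which UHRF1 brings to the newly made, half-methylated DNA. DNMT3A and DNMT3B set new methylation, with DNMT3L as a catalytically inactive helper abundant in embryonic stem cells and germ cells, and TET proteins oxidise methylcytosine as a step towards its removal. Chromatin assembly factor 1, whose large and middle subunits are encoded by Chaf1a and Chaf1b, loads histones H3 and H4 behind the replication fork. In mouse embryonic stem cells its loss is known to raise genes of the 2-cell embryo, and MORC3 is known to take part in silencing endogenous retroviruses.

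Fold changes are differences of log2(signal + 18) after quantile normalization over the 8 arrays, Rif1 shRNA minus control, and an adjusted p under 0.05 counted as past the threshold (limma, Benjamini-Hochberg over 31605 probe sets, two-sided). Signals are the authors' deposited intensities. Their scale differed between settings, with trimmed means of 193 to 197 in the J1 setting and 301 to 309 in F1, so signals are set side by side within a setting only. Replicate arrays correlated at 0.991 to 0.997. With 2 arrays a group, the precision of each value is limited by their number. At the brightest of 4 Rif1 probe sets the signal was 1260 and 1297 in J1 Rif1 shRNA arrays against 2614 and 3222 in J1 controls, and 1339 and 1407 in F1 Rif1 shRNA arrays against 4231 and 4247 in F1 controls. The F1 groups differed in more than Rif1: the Y-linked gene Eif2s3y had 911 and 960 in F1 Rif1 shRNA arrays against 19.9 and 21.4 in F1 controls. Whether both F1 groups come from 1 original line is not stated in the labels, so in every F1 value below a difference between lines and the knockdown cannot be told apart. All 17 measured embryonic stem cell markers passed the filter on dim probe sets, the dimmest with a mean signal of 316.

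In stable F1 knockdown cells, probe sets of 6 of the 9 measured genes fell: both of Uhrf1, of Dnmt3b and of Tet2, 2 of 3 of Morc3, 1 of 2 of Chaf1b and 1 of 4 of Tet1. The falls were moderate, between 0.25 and 0.57 on the log2 scale. No probe set of Dnmt1, Dnmt3a or Dnmt3l passed. At the brightest probe set of each gene, 5 of 9 genes fell and 0 rose, where 8.2% of all genes fell and 10.6% rose. In all, 10 of 24 probe sets fell and 0 rose (limma, at an unadjusted p under 0.05 it was 16 lower and 0 higher), where 6.81% of all probe sets tested fell and 8.28% rose. The median log2 fold change of the 24 was -0.29, against -0.03 over all probe sets tested. On the deposited signal the arrays of 17 of the 24 lay lower in Rif1 shRNA than in control cells without overlap, where 30.6% of all probe sets did so and 32.6% lay higher. After normalization 21 of the 24 lay lower and 0 higher without overlap, where 35.5% of all probe sets lay lower and 28.4% higher. Probe sets of 1 gene share its RNA and are not counted as independent, and which transcript variants each reads was not determined. The count of 10 was 7 and 8 without F1 control replicate 1 or 2, and 4 without either F1 Rif1 shRNA replicate.

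**Figure D1:**
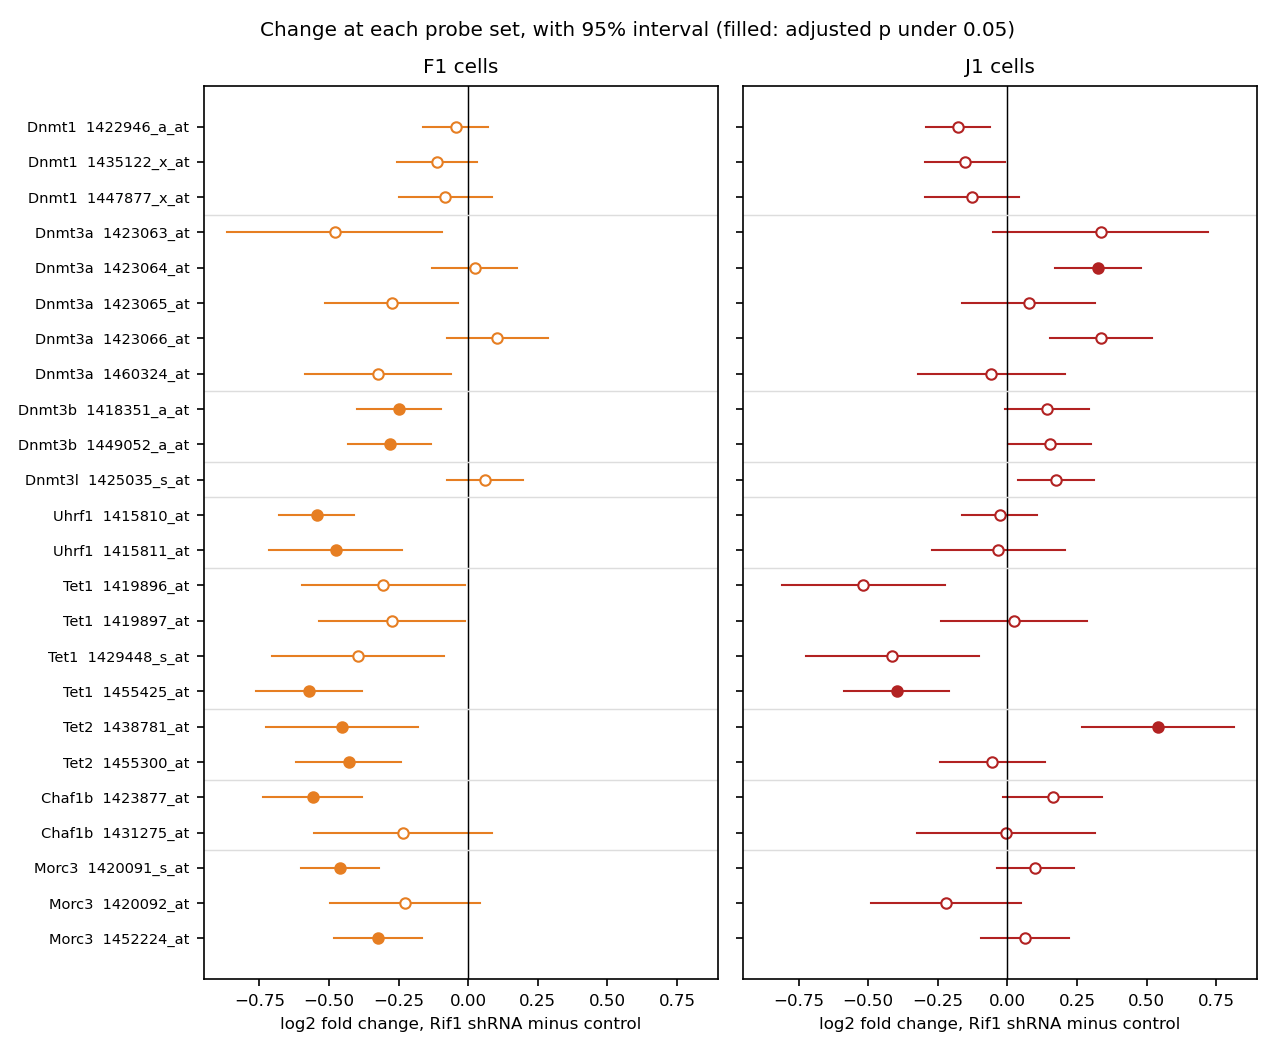
Log2 fold change (x axis, Rif1 shRNA minus control) of each of the 24 probe sets in F1 cells (left) and J1 cells (right), with the 95% interval of the limma fit as a line; filled points had an adjusted p under 0.05. In F1, 10 points are filled and all 10 lie below 0, while in J1 the 3 filled points lie on both sides of 0.

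Uhrf1, whose product recognises half-methylated CpG and recruits DNMT1, had the smallest p in F1. At probe set 1415810_at the signal was 2065 and 2057 in F1 Rif1 shRNA arrays, against 3108 and 2735 in F1 controls. Both knockdown arrays lay below both controls, and the controls were further apart than the knockdown arrays. The level fell by 31.5% (log2 fold change -0.54, SE 0.06, adjusted p = 0.000148 by limma). Probe set 1415811_at gave 809 and 745 in Rif1 shRNA arrays against 1087 and 1044 in controls, a log2 fold change of -0.48 (SE 0.11, adjusted p = 0.0125). This second call was lost when any 1 F1 array was left out (adjusted p 0.0909 and 0.0563 without control replicate 1 or 2, 0.0529 and 0.115 without Rif1 shRNA replicate 1 or 2), while the first was past the threshold under all 19 alternatives tried.

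In J1 cells 48 h after transfection, no Uhrf1 probe set passed. The signal at 1415810_at was 1752 and 1760 in J1 Rif1 shRNA arrays against 1795 and 1823 in J1 controls, without overlap but close together, a log2 fold change of -0.03 (95% interval -0.16 to 0.11, adjusted p = 0.867). The effect in F1 minus that in J1 was -0.52 (SE 0.09, adjusted p = 0.00432). At 1415811_at this difference was -0.44 (adjusted p = 0.110), in the same direction but not past the threshold.

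Dnmt1, which copies methylation at the fork with UHRF1, stayed close to its controls in F1. Its brightest probe set, 1422946_a_at, had 2187 and 2176 in F1 Rif1 shRNA arrays against 2173 and 2231 in F1 controls, and the arrays overlapped. After normalization they did not overlap, with the Rif1 shRNA arrays lower. The log2 fold change was -0.05 with a 95% interval of -0.16 to 0.07, and the other probe sets had -0.11 and -0.08 (adjusted p from 0.316 to 0.660 over the 3). In J1 the same probe set had 1275 and 1281 in Rif1 shRNA arrays against 1457 and 1439 in controls. Those arrays did not overlap, and the 3 probe sets had -0.18, -0.15 and -0.13, none past the threshold (adjusted p 0.102, 0.268 and 0.437).

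Dnmt3b, a de novo methyltransferase gene of early embryos, fell slightly in F1. At 1449052_a_at the signal was 2271 and 2379 in F1 Rif1 shRNA arrays against 2939 and 2575 in F1 controls, and at 1418351_a_at it was 1899 and 2052 against 2451 and 2147. The groups did not overlap at either probe set, but control replicate 1 lay well above control replicate 2 at both. The log2 fold changes were -0.28 (SE 0.07, adjusted p = 0.0159) and -0.25 (SE 0.07, adjusted p = 0.0329). Both calls depended on single arrays: without F1 control replicate 1 the adjusted p was 0.157 and 0.270, without Rif1 shRNA replicate 1 it was 0.169 and 0.321, and without Rif1 shRNA replicate 2 it was 0.0586 and 0.0675. The second was also lost with values as deposited (0.0579). In J1 the Dnmt3b arrays lay the other way, at 1328 and 1342 in Rif1 shRNA cells against 1168 and 1243 in controls for 1449052_a_at (log2 fold change 0.15, adjusted p = 0.281). The F1 effect minus the J1 effect was -0.43 and -0.39 at 1449052_a_at and 1418351_a_at (adjusted p = 0.0172 and 0.0311). Without F1 control replicate 1 these were 0.0726 and 0.131, without F1 Rif1 shRNA replicate 1 they were 0.104 and 0.177, without F1 Rif1 shRNA replicate 2 they were 0.0517 and 0.0606, and without J1 control replicate 1 they were 0.0617 and 0.0801. The second was also lost without J1 control replicate 2 (0.0809) or J1 Rif1 shRNA replicate 2 (0.0564).

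Dnmt3a, the other de novo enzyme gene, gave unlike values at its 5 probe sets. The bright pair 1423066_at and 1423064_at had log2 fold changes of 0.10 and 0.02 in F1, with overlapping arrays. The dimmer 1423063_at had 288 and 280 in F1 Rif1 shRNA arrays against 403 and 398 in F1 controls, a clear gap, with a log2 fold change of -0.48 (95% interval -0.87 to -0.09, adjusted p = 0.0975). The dim probe sets 1423065_at and 1460324_at had -0.27 and -0.32 (adjusted p = 0.125 and 0.101). The fit shares 1 spread across settings, and with only the 4 F1 arrays these 3 passed (adjusted p = 0.00146, 0.0365 and 0.0143). With values as deposited 1423063_at and 1460324_at passed too (0.0211 and 0.0338). In J1, 1423064_at rose, with 502 and 485 in Rif1 shRNA arrays against 408 and 388 in controls (log2 fold change 0.33, SE 0.07, adjusted p = 0.0328). The brightest probe set 1423066_at had 0.34 (adjusted p = 0.0566). The J1 rise was not past the threshold when any J1 array was left out (adjusted p = 0.0656 and 0.175 for the controls, 0.0546 and 0.0542 for the knockdown arrays), when either F1 knockdown array was (0.0827 and 0.0810), or with the 4 J1 arrays alone (0.199).

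Dnmt3l, the inactive helper, was read by 1 probe set, 1425035_s_at. It had 2799 and 2959 in F1 Rif1 shRNA arrays against 2852 and 2636 in F1 controls, which overlapped (log2 fold change 0.06, 95% interval -0.08 to 0.20). In J1 it had 1337 and 1345 in Rif1 shRNA arrays against 1222 and 1157 in controls, without overlap (0.17, adjusted p = 0.172). Of the 4 methyltransferase family genes Dnmt3b alone had a call in F1, and whether its change differs from those of the other 3 was not tested.

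**Figure D2:**
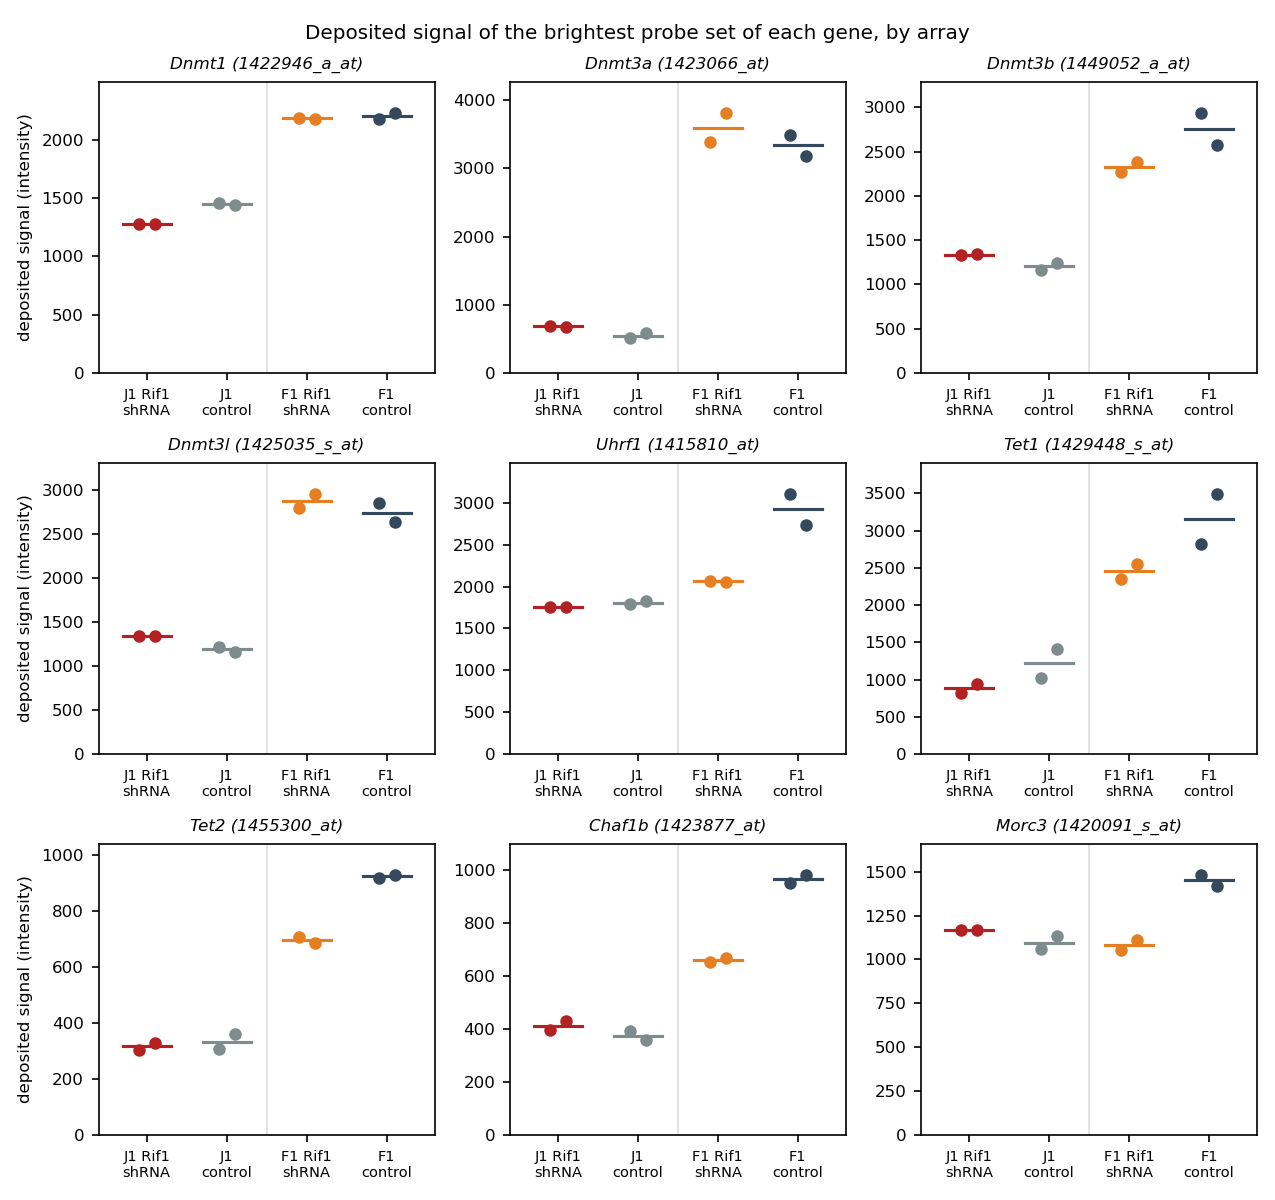
Deposited signal (y axis, linear intensity from 0) of the brightest probe set of each of the 9 measured genes; points are arrays, bars are means of 2 arrays, and groups run J1 Rif1 shRNA, J1 control, F1 Rif1 shRNA, F1 control. In F1 the Uhrf1, Tet2, Chaf1b and Morc3 arrays of the knockdown lie below those of the control, while Dnmt1, Dnmt3a and Dnmt3l overlap; J1 and F1 signals have different scales.

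Tet1, the main TET gene of embryonic stem cells, was lower in both settings. At 1455425_at the signal was 2129 and 2286 in F1 Rif1 shRNA arrays against 3144 and 3188 in F1 controls, a fall of 0.57 on the log2 scale (log2 fold change -0.57, SE 0.09, adjusted p = 0.00108). This was the largest F1 change among the 24 probe sets and was past the threshold under all 19 alternatives. The same probe set had 705 and 711 in J1 Rif1 shRNA arrays against 850 and 1072 in J1 controls (log2 fold change -0.40, SE 0.09, adjusted p = 0.0340). The 2 effects differed by -0.17 (95% interval -0.44 to 0.09, adjusted p = 0.454). The J1 call was lost when any array other than J1 control replicate 1 was left out (adjusted p 0.0595 to 0.167, the highest without J1 control replicate 2), and with the 4 J1 arrays alone (0.117).

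The other 3 Tet1 probe sets did not pass in either setting, although 1429448_s_at passed in F1 without F1 control replicate 1 (adjusted p = 0.0436) or without either J1 control (0.0452 and 0.0457), and with the 4 F1 arrays alone (0.0336). Probe set 1429448_s_at had -0.40 in F1 and -0.41 in J1 (adjusted p = 0.0882 and 0.153), 1419896_at had -0.30 and -0.52 (0.167 and 0.0634), and the dim 1419897_at had -0.27 and 0.02. At the first 2 of these, J1 control replicates 1 and 2 lay far apart, at 1028 and 1407 and at 411 and 542.

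Tet2, the other TET gene measured, fell at both probe sets in F1. At 1455300_at the signal was 706 and 685 in F1 Rif1 shRNA arrays against 919 and 929 in F1 controls, with a wide gap between groups (log2 fold change -0.43, SE 0.09, adjusted p = 0.00589). At 1438781_at it was 231 and 261 against 300 and 389 (log2 fold change -0.45, SE 0.12, adjusted p = 0.0307). The first was lost without F1 Rif1 shRNA replicate 1 or 2 (0.0509 and 0.0693), and the second without either of these (0.260 and 0.0923) or without F1 control replicate 2 (0.290).

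In J1 the Tet2 probe sets disagreed. Probe set 1438781_at rose, with 175 and 186 in J1 Rif1 shRNA arrays against 139 and 112 in J1 controls (log2 fold change 0.54, SE 0.12, adjusted p = 0.0422). Probe set 1455300_at had -0.05 (adjusted p = 0.805), with overlapping arrays. The J1 rise was lost when any 1 of the 8 arrays was left out (adjusted p 0.0532 to 0.232, the highest without J1 control replicate 2). At 1438781_at the F1 effect minus the J1 effect was -0.99 (SE 0.18, adjusted p = 0.00560), past the threshold under all 18 alternatives that give it. At 1455300_at the difference was -0.38 (adjusted p = 0.0870).

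Chaf1b, the middle subunit gene of chromatin assembly factor 1, fell in F1 and not in J1. At 1423877_at the signal was 655 and 670 in F1 Rif1 shRNA arrays against 951 and 983 in F1 controls (log2 fold change -0.56, SE 0.08, adjusted p = 0.000821). In J1 it was 397 and 430 in Rif1 shRNA arrays against 391.5 and 359 in controls (log2 fold change 0.16, SE 0.08, adjusted p = 0.336). The effects differed by -0.72 (SE 0.11, adjusted p = 0.00297), and both the F1 call and this difference were past the threshold under every alternative that gave them (19 and 18). The dim probe set 1431275_at had 45.3 and 46.7 in F1 Rif1 shRNA arrays against 65.6 and 51.5 in F1 controls (-0.23, adjusted p = 0.348).

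Morc3 encodes an ATPase that binds histone H3 methylated at lysine 4. At 1420091_s_at the signal was 1053 and 1110 in F1 Rif1 shRNA arrays against 1482 and 1419 in F1 controls (log2 fold change -0.46, SE 0.06, adjusted p = 0.000569). In J1 the same probe set had 1170 and 1167 in Rif1 shRNA arrays against 1059 and 1132 in controls (0.10, adjusted p = 0.463). The effects differed by -0.56 (SE 0.09, adjusted p = 0.00307), under all 18 alternatives that give it. At 1452224_at the F1 log2 fold change was -0.32 (adjusted p = 0.0107) and the difference between settings -0.39 (adjusted p = 0.0393). That F1 call was lost without F1 control replicate 1 (0.114), F1 Rif1 shRNA replicate 1 (0.0729) or replicate 2 (0.114), and the difference was lost without these arrays (0.164, 0.134 and 0.184) and without J1 control replicate 1 or 2 (0.0963 and 0.0686). The difference was past the threshold under 8 of 18 alternatives, and was also lost with no filter (0.0599), with values as deposited (0.0561), with arrays scaled to a common trimmed mean (0.0521) and with no intensity trend (0.101). The dim 1420092_at had -0.23 in F1 and -0.22 in J1 (adjusted p = 0.272 and 0.403).

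Morc3 and Chaf1b are next to each other on chromosome 16, and the RefSeq gene order was used to look at the 3 tested genes on either side, a choice made after the values were seen. Of the 7 probe sets of these 6 neighbours, 3 fell in F1. They were those of the long noncoding RNA gene 2310043M15Rik (-0.90, adjusted p = 0.000380), which lies inside Dop1b, of the long noncoding RNA gene 2410003I16Rik (-0.73, adjusted p = 0.00255) and of the carbonyl reductase gene Cbr3 (-0.53, adjusted p = 0.00356). The 2410003I16Rik probe set was dim, with 21.7 and 23.05 in F1 Rif1 shRNA arrays against 51.21 and 51.55 in F1 controls. It passed the filter on dim probe sets through the F1 control arrays alone, so the filter favoured a fall there. Both Dop1b probe sets had -0.07 and 0.02, Sim2 had 0.11 and Hlcs had -0.19, none past the threshold. In J1, Cbr3 alone among these fell (-0.72, adjusted p = 0.00401). Over the 905 tested probe sets of chromosome 16 the median F1 log2 fold change was -0.03, and 6.41% fell.

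**Figure D3:**
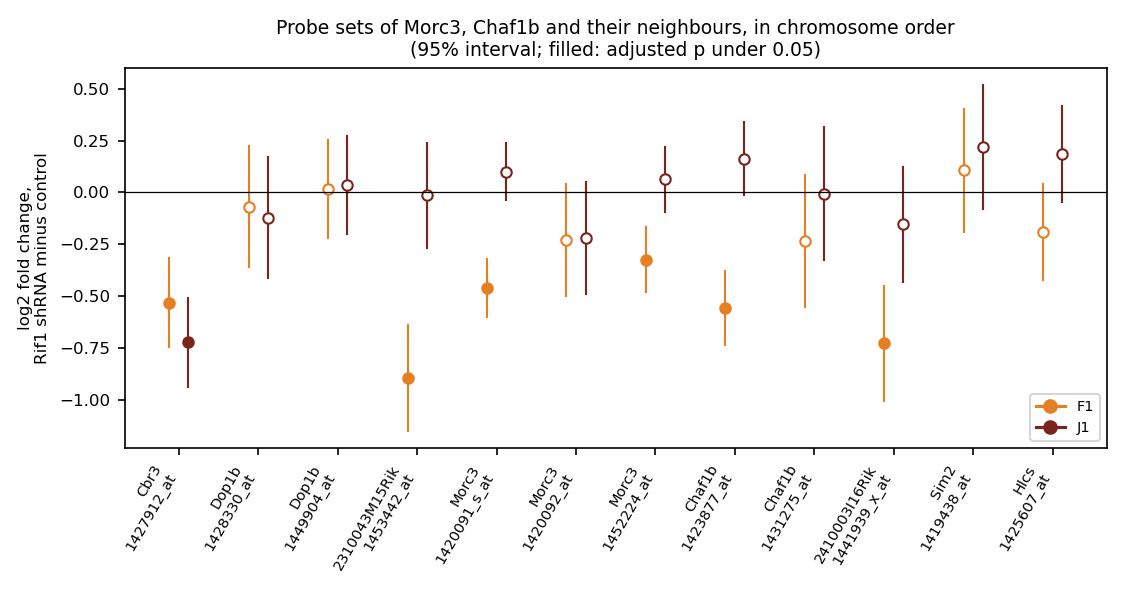
Log2 fold change (y axis, Rif1 shRNA minus control, with 95% interval) of probe sets of Morc3, Chaf1b and the 3 tested genes on either side, in chromosome order along the x axis without distances; each probe set has its F1 value at left and its J1 value at right, filled where the adjusted p was under 0.05. The F1 values of Cbr3, 2310043M15Rik, Morc3, Chaf1b and 2410003I16Rik include filled points between -0.90 and -0.32, whereas Dop1b, Sim2 and Hlcs have none.

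The upstream sequences of 3 genes that fell in F1 are shown because Uhrf1, like Dnmt1, is a known target of E2F, the transcription factor family of S phase genes, and because Morc3 and Chaf1b are neighbours. The 250 bases before each start come from RefSeq promoters of build GRCm38.p6, where all 10 symbols matched, with 17 starts. Both strands were searched for 4 spellings of an E2F-type motif, TTTCCCGC, TTTCGCGC, TTTGCCGC and TTTGGCGC; overlapping matches in 1 window count once towards the shares given. A match stands in 1.86% of all 32851 promoters and in 2 of the 17. It is in capitals here.
Uhrf1, chr17:56304063-56304312, plus strand: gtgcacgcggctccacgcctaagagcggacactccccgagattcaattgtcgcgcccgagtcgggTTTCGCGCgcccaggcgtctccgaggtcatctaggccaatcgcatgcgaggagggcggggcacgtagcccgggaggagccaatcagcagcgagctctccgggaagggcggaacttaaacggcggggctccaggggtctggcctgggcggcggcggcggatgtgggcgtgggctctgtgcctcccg
Chaf1b, chr16:93883651-93883900, plus strand: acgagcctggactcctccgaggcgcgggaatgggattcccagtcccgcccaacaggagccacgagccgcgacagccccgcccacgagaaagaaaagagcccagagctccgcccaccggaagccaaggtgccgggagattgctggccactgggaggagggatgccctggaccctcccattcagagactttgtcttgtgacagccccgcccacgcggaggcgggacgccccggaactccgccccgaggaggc
Morc3, chr16:93831871-93832120, plus strand: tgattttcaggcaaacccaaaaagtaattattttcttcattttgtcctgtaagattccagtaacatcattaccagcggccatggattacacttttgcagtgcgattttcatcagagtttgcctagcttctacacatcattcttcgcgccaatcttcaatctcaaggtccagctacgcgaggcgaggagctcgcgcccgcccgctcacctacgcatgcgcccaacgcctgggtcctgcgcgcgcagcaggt
The Uhrf1 match, TTTCGCGC, began at position -185 from the second listed start. The other match, GCGCGAAA, began at position -219 from one of 3 listed Dnmt1 starts, while no Dnmt1 probe set passed in F1. The windows of Chaf1b and Morc3 held none of these letters in this order. CpG pairs numbered 30, 21 and 17 in the 3 windows, where the median of all promoters was 6 and that of the 17 listed here was 17. All 4 spellings hold a CpG pair, and the shares with a match were not compared at like CpG content. The Uhrf1 window shown was picked because it holds a match. The window before the other, outermost Uhrf1 start, which is not shown, held no match and 10 CpG pairs.

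In J1 cells as a whole, 3 of the 24 probe sets passed, where 3.18% of all probe sets tested did (1.44% higher and 1.74% lower). Those were the rises of Dnmt3a (1423064_at) and Tet2 (1438781_at) and the fall of Tet1 (1455425_at), with 12 log2 fold changes above and 12 below 0. At an unadjusted p under 0.05 (limma) there were 5 higher and 5 lower. The median was 0.01, against -0.001 over all probe sets tested. Fitted on the 4 J1 arrays alone, or with no intensity trend, 0 of the 24 passed, and leaving out any 1 of the 8 arrays left 0 or 1. On the deposited signal 10 probe sets lay higher and 8 lower in Rif1 shRNA arrays without overlap, where 20.6% and 19% of all probe sets did so.

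The settings differed at 7 of the 24 probe sets, all with a lower effect in F1 than in J1, where 8.37% of all probe sets tested differed (4.99% with a higher and 3.37% with a lower effect in F1). At the brightest probe set of each gene, 4 of 9 genes had a lower effect in F1, where 6.25% of all genes had a higher and 4.37% a lower one. They belonged to 5 genes: Uhrf1, Dnmt3b, Tet2, Chaf1b and Morc3. Strain, time since knockdown and way of delivery changed together between the settings and cannot be told apart.

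**Figure D4:**
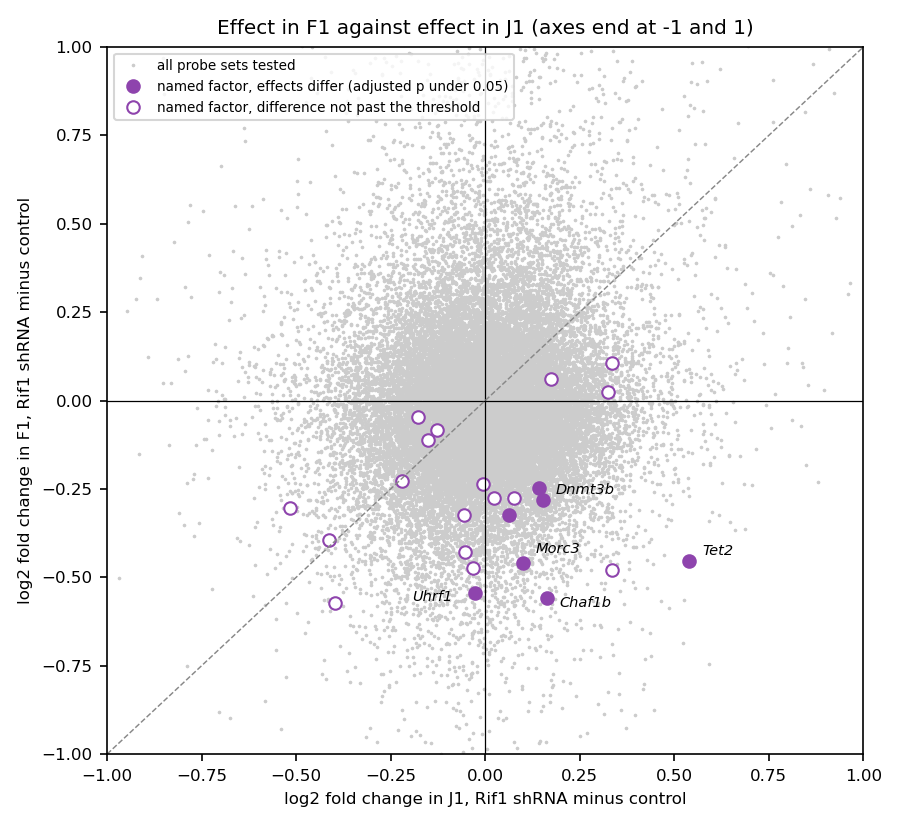
Log2 fold change in F1 (y axis) against that in J1 (x axis), each Rif1 shRNA minus control; grey dots are all probe sets tested, axes end at -1 and 1, and the dashed line marks equal effects. Circles are the 24 probe sets, filled where the effects differed at an adjusted p under 0.05, and the 7 filled circles lie below the dashed line.

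By the root mean square difference over the 8 arrays after centring each profile, the genes most like Tet1 (1455425_at) were Atrx (0.0725), Kmt2c (0.0765) and Luc7l2 (0.0816), where the median over all other probe sets was 0.553. Atrx is a chromatin remodeller gene that with DAXX places histone H3.3. At that probe set it had -0.50 in F1 and -0.38 in J1. The probe set was picked for its likeness to Tet1 on these same arrays, so values near those of Tet1 follow from the choice. At its brightest probe set Atrx had -0.31 and -0.30, neither past the threshold (adjusted p = 0.146 and 0.261 by limma). The genes most like Tet2 (1438781_at) were Smtnl2 (0.124), Tex9 (0.143) and Asrgl1 (0.151). Levels set by cell line enter this likeness.

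Between the control groups, normalized levels differed for several of these genes. F1 controls were 2.21 to 3.58 times as high as J1 controls at the 5 Dnmt3a probe sets. The ratio was 1.20 to 1.95 at the 4 probe sets of Tet1 and 1.60 and 1.76 at those of Tet2. It was 1.36 and 1.34 at Dnmt3b, 1.36 at Dnmt3l and 0.844 to 0.890 at the 3 probe sets of Dnmt1. Probe sets of the other genes disagreed in direction, with 1.48 and 0.521 at Chaf1b, 0.980 and 1.68 at Uhrf1, and 0.773, 0.580 and 1.03 at Morc3. The ratio of the 3' to the 5' actin probe set, a sign of RNA quality, was 1.35 and 1.41 in F1 controls against 2.71 and 2.61 in J1 controls. Its part in these differences was not tested, and strain and culture also differ between the groups.

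Among partners of methylation not counted above, 4 of 14 measured genes fell and 0 rose in F1 (8 lower and 1 higher at an unadjusted p under 0.05, limma), where 8.2% of all genes at their brightest probe set fell and 10.6% rose. Cdca7 and Hells, which form a nucleosome remodeller needed for methylation, fell by 0.45 and 0.42 on the log2 scale (adjusted p = 0.000577 and 0.00676). Nsd1, a histone H3 lysine 36 methyltransferase gene, fell by 0.37 and Usp7, whose product stabilises UHRF1 and DNMT1, by 0.23 (adjusted p = 0.00813 and 0.0226). Cdca7 also fell in J1 (-0.30, adjusted p = 0.0289), as 1 of the 14, where 4.03% of all genes changed in J1 (1.86% higher and 2.17% lower). That call was lost without J1 control replicate 1 or 2, J1 Rif1 shRNA replicate 2 or any 1 F1 array, with no intensity trend and with the 4 J1 arrays alone. The 4 falls in F1 became 2 without either F1 knockdown array or F1 control replicate 2, and 7 with the 4 F1 arrays alone. The list's median was -0.18 in F1 and -0.04 in J1, against -0.02 and 0.01 over all genes.

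Of 15 genes of methylcytosine oxidation and repair, 5 fell and 1 rose in F1, where 8.2% of all genes fell and 10.6% rose. The list's median was -0.14. The falls became 3 without F1 control replicate 1 and 2 without either F1 knockdown array or F1 control replicate 2, and the rise was lost without F1 control replicate 1 or F1 Rif1 shRNA replicate 2. The largest fall was that of Idh2, whose product makes the oxoglutarate TET enzymes use (-0.78, adjusted p = 4.13e-05). Gadd45a fell by 0.51 (adjusted p = 0.000608), and its relative Gadd45b rose by 0.47 (adjusted p = 0.00793). Tet3, the remaining TET gene, had 0.04 (adjusted p = 0.930). In J1, 0 of 15 passed (5 lower and 0 higher at an unadjusted p under 0.05, limma).

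Of 12 genes for readers of CpG methylation, 2 rose and 1 fell in F1, where 10.6% of all genes rose and 8.2% fell, so the count is near that of all genes. Without any 1 F1 array 1 rose and 0 fell. The methyl-CpG binding gene Mbd2 rose by 0.54 (adjusted p = 0.00217), Uhrf2, the relative of Uhrf1, rose by 0.37 (adjusted p = 0.0167), and Zbtb38 fell by 0.45 (adjusted p = 0.0367). Their median was 0.01. It was -0.01 without F1 Rif1 shRNA replicate 2 and above 0 under every other alternative, up to 0.05. In J1, 0 of 12 passed (1 lower and 2 higher at an unadjusted p under 0.05, limma).

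Among 24 other histone chaperone genes, 6 fell and 0 rose in F1 (8 lower and 3 higher at an unadjusted p under 0.05, limma). Of all genes 8.2% fell and 10.6% rose. The list's median was -0.10. The falls became 4 without F1 control replicate 1 or 2 or F1 Rif1 shRNA replicate 1, and 3 without F1 Rif1 shRNA replicate 2 or with no intensity trend, while 3 rose with the 4 F1 arrays alone. Hat1, which acetylates new histone H4, fell by 0.42 (adjusted p = 0.000194). Anp32e, a chaperone of H2A.Z, fell by 0.41 (adjusted p = 0.000294), and Nasp, a chaperone of H3 and H4, by 0.35 (adjusted p = 0.00204). Rbbp4, the small subunit gene of chromatin assembly factor 1, had -0.19 in F1 (adjusted p = 0.00793) and -0.09 in J1 (adjusted p = 0.313). In J1, 0 of the 24 passed (6 lower and 2 higher at an unadjusted p under 0.05, limma).

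Of 3 other MORC genes measured, Morc1, a germ cell gene, fell in F1 and rose in J1. Its signal was 645 and 705 in F1 Rif1 shRNA arrays against 1269 and 1288 in F1 controls (log2 fold change -0.93, adjusted p = 6.76e-06). In J1 it was 699 and 708 in Rif1 shRNA arrays against 536 and 560 in controls (0.37, adjusted p = 0.0160), and the effects differed by -1.30 (adjusted p = 3.15e-05). The J1 rise was lost without J1 control replicate 1 or 2, with no intensity trend and with the 4 J1 arrays alone. Morc4 rose in F1 (0.72, adjusted p = 0.00127).

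Uhrf1, Dnmt1 and Chaf1b are also genes of proliferating cells. Of 23 other S phase genes, 10 fell and 1 rose in F1, where 8.2% of all genes fell and 10.6% rose. The list's median was -0.19. The count of falls was 5 without F1 control replicate 1 or with no intensity trend, and 4 without either F1 knockdown array or F1 control replicate 2. Pola1 fell by 0.53, Rrm2 by 0.34 and Mcm3 by 0.31 (adjusted p = 0.000282, 0.000416 and 0.000973), and Ccne2 rose by 0.37 (adjusted p = 0.0193). In J1, 2 of 23 fell, where 2.17% of all genes did: Mcm5 (-0.20, adjusted p = 0.0267) and Mcm4 (-0.22, adjusted p = 0.0493). Neither passed without J1 control replicate 1 or 2, without any 1 F1 array, with no intensity trend or with the 4 J1 arrays alone, and 1 passed without J1 Rif1 shRNA replicate 2.

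Germline genes listed as kept silent by promoter methylation moved in both settings. Their summed signal at the brightest probe sets was 6316 to 6534 on F1 control arrays and 3782 to 3881 on J1 control arrays. The list as a whole was therefore not silent in control cells, and whether the rises are lost silencing was not tested. Of 15 with a probe set, 13 passed the filter on dim probe sets, which can let dim genes in through the arrays where they are high. Among these 13, 6 rose and 2 fell in F1, and 6 rose and 0 fell in J1 (8 higher and 0 lower in J1 at an unadjusted p under 0.05, limma). Over all genes, 10.6% rose and 8.2% fell in F1, and 1.86% rose and 2.17% fell in J1. Dazl rose by 2.06 in F1 and 1.32 in J1 (adjusted p = 1.07e-06 and 0.000320), and Tex19.1 by 0.51 and 0.54 (adjusted p = 0.000306 and 0.00182). Hormad1 fell by 1.71 in F1 (adjusted p = 1.59e-06) and had 0.004 in J1. Of 17 named genes of the 2-cell embryo, the stage that loss of chromatin assembly factor 1 is known to bring out, 8 were measured. Of these, 8 rose in F1 and 6 in J1. The Chaf1b probe set 1423877_at had 0.16 in J1, not past the threshold, and its part in these rises was not tested. Methylation itself was not measured.

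**Figure D5:**
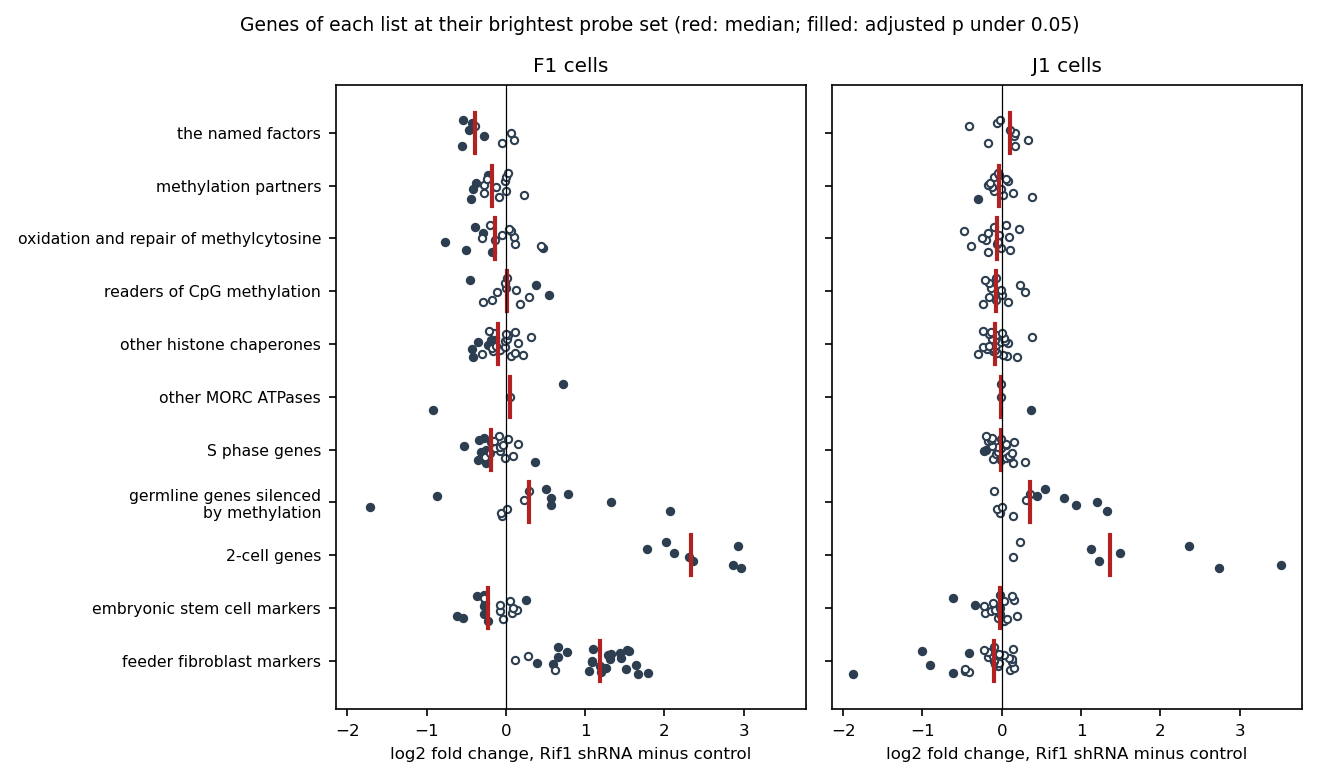
Log2 fold change (x axis, Rif1 shRNA minus control) of genes at their brightest probe set in F1 cells (left) and J1 cells (right), one row per gene list; red bars are medians and filled points had an adjusted p under 0.05. In F1 the 9 measured factors have a median of -0.40, S phase genes -0.19, embryonic stem cell markers -0.22 and feeder fibroblast markers 1.19.

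Markers of feeder fibroblasts moved with the F1 knockdown: 23 of 26 were higher and 0 lower (25 and 0 at an unadjusted p under 0.05, limma), with a median of 1.19. Their summed signal was 45680 to 46901 in F1 Rif1 shRNA arrays against 23267 to 23405 in F1 controls, and 16454 to 16475 in J1 Rif1 shRNA arrays against 17988 to 19172 in J1 controls. In J1, 6 of the 26 were lower, which became 2 without J1 control replicate 1. Of all genes 2.17% were lower in J1. None of the 26 feeder markers was at 0. Embryonic stem cell markers had 8 lower and 1 higher of 17 in F1, where 8.2% of all genes were lower and 10.6% higher. The summed signal of these 17 was 74399 to 76103 in Rif1 shRNA arrays against 77079 to 79101 in controls. The falls became 4 without F1 control replicate 1 or F1 Rif1 shRNA replicate 2, 5 without F1 Rif1 shRNA replicate 1 and 3 with no intensity trend. Esrrb fell by 0.54 (adjusted p = 0.000104), Fgf4 by 0.62 (adjusted p = 0.00405), Zfp42 by 0.28 (adjusted p = 0.00384) and Sox2 by 0.26 (adjusted p = 0.00258), while Pou5f1 and Nanog had 0.08 and 0.14 (adjusted p = 0.655 and 0.0898). Trophoblast markers also moved in F1, with 5 of 8 higher and 1 lower and a median of 1.10. Their summed signal was 9742 to 10607 in F1 Rif1 shRNA arrays against 2481 to 2673 in F1 controls. The part of feeder RNA, or of RNA from cells with trophoblast markers, in the F1 falls of the methylation and assembly genes was not tested. Which cells gave the RNA of the feeder or trophoblast lists was not determined, and the list names do not settle it. In bulk RNA fewer cells of a type and less RNA per cell cannot be told apart.

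The F1 groups also differed in genes of the sex chromosomes, of which 4 of 7 were higher and 1 lower in the knockdown. Of all genes 10.6% were higher and 8.2% lower. Among these 7, higher and lower Y-linked genes both occurred. The lower gene was Usp9y, with 29.7 and 43.7 in F1 Rif1 shRNA arrays against 79.6 and 100.02 in F1 controls. Beside Eif2s3y, given above, the Y-linked gene Uty had 144 and 142 in F1 Rif1 shRNA arrays against 7.54 and 4.69 in F1 controls. Xist, from the X chromosome, had 192 and 205 against 106 and 117 (log2 fold change 0.58, adjusted p = 0.00600), and the X-linked signalling gene Dusp9 had 0.20 (adjusted p = 0.268). X-linked Tsix had -0.09 (adjusted p = 0.735 by limma). The median F1 log2 fold change over 798 X-linked probe sets was 0.01. In J1, the same actin ratio was 2.18 and 2.17 in Rif1 shRNA arrays against 2.71 and 2.61 in controls, while on F1 arrays it was 1.33 and 1.33 against 1.35 and 1.41. Its part in the J1 changes was not tested.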

How the data were processed

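Biotin-labelled RNA from 8 samples was read on Affymetrix mouse genome 430 2.0 arrays, per the labels' protocols. The deposited values are intensity signals on a linear scale, 1 per probe set, made by the authors with MAS5 per the submitters' processing notes. There were 45101 probe sets in all, controls included.

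Signals were taken as log2(signal + 18), where 18 is the rounded 10th percentile of all values, and quantile normalized over all arrays because array scale differed between settings. The 64 control probe sets were then left out, and a probe set was tested if at least 2 arrays had it above their own 40th percentile, which left 31605. Groups came from the sample titles. The 8 arrays entered 1 limma model (limma 3.58.1, R 4.3.3) with a mean per group, moderating the spread along intensity, with 4 residual and 6.94 prior degrees of freedom. The code of the fit was checked on simulated data with independent noise. That check set no requirement for changes as small as the members' falls, nor for false calls. Symbols came from the platform annotation: 34945 probe sets had 1, 932 had several and named no gene, and 9160 had none listed here; 34884 of the first matched the RefSeq gene table. A gene on a list was taken at its brightest tested probe set. Figures were drawn with matplotlib 3.10.9.

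The members, lists and tests were chosen with earlier results of these data known. Named were all member probe sets, Rif1, sex chromosome genes, and from each list up to 4 genes with the smallest p per setting, as values or counts; Tet3, Rbbp4, Pou5f1, Nanog, the neighbours of Morc3 and the cell line comparison were chosen after their values were seen. Lists of primed epiblast, trophoblast and primitive endoderm markers were also counted. In F1, 2 of 6 primed epiblast markers were lower, 5 of 8 trophoblast markers higher and 1 lower, and 2 of 9 primitive endoderm markers higher and 1 lower. In J1, 2 trophoblast and 2 primitive endoderm markers were lower. Over all genes, 10.6% were higher and 8.2% lower in F1, and 1.86% were higher and 2.17% lower in J1. Without any 1 F1 array 1 epiblast marker was lower in F1, and without J1 control replicate 2 no primitive endoderm marker was lower in J1.

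The replicate numbers do not establish pairs: deviations of same-numbered arrays correlated at -0.34 in J1 and 0.19 in F1. The alternatives changed the offset, the filter, the scaling, the estimate of spread, the threshold or the block, or left out 1 array.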

Additional observations from a re-analysis of the deposited data

Results flagged for a closer look

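The effect of Rif1 shRNA in F1 differed from that in J1 at 7 probe sets of these genes by the interaction term of the limma fit. The F1 effect minus the J1 effect, on the log2 scale, was -0.993 for Tet2 (1438781_at), -0.723 for Chaf1b (1423877_at), -0.562 and -0.387 for Morc3 (1420091_s_at and 1452224_at), -0.517 for Uhrf1 (1415810_at), and -0.434 and -0.389 for Dnmt3b (1449052_a_at and 1418351_a_at). The groups have 2 arrays each, too few to look for single outlying arrays.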

How the results depend on the processing

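Of 1341 comparisons of a member's log2 fold change with an alternative, 1227 kept their side of the threshold, 81 lost a call, 33 gained one and 0 called values changed sign; 29 values without a call changed sign. At an adjusted p under 0.01, the probe sets past the threshold in J1 numbered 271, the probe sets past the threshold in F1 2592, and the probe sets past the threshold in the F1 effect minus the J1 effect 1144, and 0, 5 and 4 of the members' probe sets. With only the 4 arrays of a setting in the fit, 280 passed in J1 and 8127 in F1, with 0 of the members' in J1. With no intensity trend 350 passed in J1, with 0 of the members' in J1 and 4 in the difference. With arrays scaled to a common trimmed mean, 1 of the members' passed in J1. With the replicate block 468 passed in J1 and 1709 in the difference, with 0 of the members' in J1; 10 of the members' passed in F1 and 5 in the difference. A crossed replicate block in J1, chosen after seeing the data, gave 1786 in J1, with 5 of the members'. Leaving out each array in turn gave 229 to 1763 in J1, 1856 to 6211 in F1 and 1014 to 3995 in the difference, and for the members' probe sets 0 to 1, 4 to 12 and 4 to 9. A group left with 1 array is assumed to vary like the others. The cause of these changes was not tested. Other offsets and filters moved none of these counts over all or the members' probe sets by over 1.5 times. Among the gene lists, S phase genes lower in J1 were 1 in place of 2 with the offset 4 times as large or with no filter, and oxidation and repair genes higher in F1 were 2 in place of 1 with that offset. Primitive endoderm markers higher in F1 were 1 in place of 2 with the filter at the 60th percentile. The Tet1 probe set 1429448_s_at passed in F1 with the replicate block (adjusted p = 0.0179 by limma), and 1419896_at passed in J1 and F1 with the crossed block (0.0103 and 0.0279). With the replicate block the Morc3 probe set 1452224_at lost its difference (0.0686), and no S phase or methylation partner gene was lower in J1. No detection call was used, so how far dim probe sets stand above background is unknown.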
